A study of Mus musculus with 12 samples.

Results

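Gas5 (growth arrest-specific 5) is a noncoding gene of the mouse whose introns carry small nucleolar RNAs. It was measured here as 20 exon bins, the non-overlapping pieces into which a gene model is divided. They were chosen by the gene name in the deposited tables, together with rows that shared the model name, after repeated rows were dropped, and they are 20 of 925 distinct bins and 1 of 58 gene models. The model joins 6 transcripts of the UCSC annotation. The RNA was that of D1, a mouse cell line, and the 12 samples were mixed from sequencing reads on a computer. Each sample had a background from a TruSeq library, an unstranded protocol that selects poly(A) RNA, prepared with an input of 100 ng or 1000 ng total RNA. Reads of listed transcripts were added from 20M, 40M or 80M source reads (M stands for 1e6), either of a NuGENv2 library with 2 ng input or of a TruSeq library with 100 ng input. Each kit and depth gave 1 table with 5 replicate columns with the 100 ng background and 5 with the 1000 ng background. The labels of all 100 ng samples list 1 Gas5 transcript, uc007det.1, among those given synthetic reads of uniform coverage on the endogenous background, and those of the 1000 ng samples list none. All samples are 1 cell line, and the sources do not say whether the 5 replicates came from separate cultures, so p-values measure the spread between these columns.

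Gas5 belongs to the genes whose introns, rather than their exons, are conserved: box C/D small nucleolar RNAs (snoRNAs) are cut out of the spliced introns and guide the methylation of ribosomal RNA. The spliced exons form a long noncoding RNA that begins with a terminal oligopyrimidine tract, as the mRNAs of ribosomal proteins do. Its short reading frame makes it a substrate of nonsense-mediated decay in growing cells, so that it accumulates when translation or growth stops. Human GAS5 RNA has also been described as binding the glucocorticoid receptor.

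In the NCBIM37 (mm9) genome with the GENCODE vM1 annotation, Gas5 lies on the plus strand at chr1:162964553-162968670 and is annotated as a lincRNA. The bin lengths recovered from the deposited values placed every bin on this gene. For 19 bins the length plus 1 base equalled an exon or intron of the transcript Gas5-001, and E001 equalled the first exon of Gas5-002. Of the 20 bins, 12 were the exons of Gas5 and 8 were its introns 1 to 8, and introns 9, 10 and 11 were in no bin. All 8 intron bins began with GT and ended with AG. The annotation places 9 snoRNAs in the gene, of which 6 lie within intron bins: SNORD74 in E002, SNORD75 in E004, SNORD24 in E006, SNORD44 in E010, SNORD78 in E012 and SNORD79 in E016. Introns 4 and 7, the bins E008 and E014, hold no annotated snoRNA. SNORD77, Snord47 and SNORD81 lie in the 3 introns outside the bins.

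The sequences of 5 bins show the parts of the gene that the measurements concern, read from NCBIM37 on the plus strand. The first exon (chr1:162965297-162965325) is shown with its opening pyrimidines in capitals, the intron bins E006 (chr1:162966146-162966338) and E016 (chr1:162967447-162967635) with their snoRNA in capitals, the intron bin E014 (chr1:162967296-162967418), which has no annotated snoRNA, with its GT and AG ends in capitals, and the last exon (chr1:162968588-162968668) with ATTAAA, a known variant of the polyadenylation signal, in capitals.
E001: CTTTCggagctgtgcggcattctgagcag
E006: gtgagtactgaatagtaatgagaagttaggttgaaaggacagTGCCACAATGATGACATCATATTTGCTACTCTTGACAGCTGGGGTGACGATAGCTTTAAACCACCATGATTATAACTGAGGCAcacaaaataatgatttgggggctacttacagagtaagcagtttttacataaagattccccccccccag
E014: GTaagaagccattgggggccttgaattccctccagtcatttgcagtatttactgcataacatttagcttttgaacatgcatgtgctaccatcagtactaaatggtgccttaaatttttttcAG
E016: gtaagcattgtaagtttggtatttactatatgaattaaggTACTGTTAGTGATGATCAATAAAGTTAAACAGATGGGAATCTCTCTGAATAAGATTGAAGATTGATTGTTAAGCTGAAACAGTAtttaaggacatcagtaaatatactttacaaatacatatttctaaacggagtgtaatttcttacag
E020: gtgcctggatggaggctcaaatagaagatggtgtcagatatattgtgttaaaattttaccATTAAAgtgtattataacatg
The letters TGATGA, the core of the C box, occurred within the first 20 bases of 7 of the 9 snoRNAs, and the D box CTGA within the last 20 bases of all 9, read on the plus strand. TGATGA on either strand occurred in 4.96% of windows of 80 bases tiled over chromosome 1. On the plus strand, E020 was the 1 Gas5 bin of 20 that held ATTAAA, which ended 15 bases before the end of the bin. The same letters on either strand were in 9.71% of windows of 81 bases on chromosome 1. These matches describe the letters only.

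The deposited signal was whole reads per base of bin, except in the fifth 100 ng column, whose values had in addition been divided by 1 further number, taken here to be the reads of its library in units of 1e6. Reads were recovered from it for every Gas5 bin. Gas5 reads summed over the 20 bins were 798, 791, 1765, 1311 and 710 in replicates 1 to 5 of the 100 ng background, and 1277, 2420, 1042, 1285 and 889 in those of the 1000 ng background. The ranges of the groups overlapped, and replicate 2 of the 1000 ng background stood highest. All 58 models together held 237258 to 417019 reads in the 100 ng columns and 347941 to 558561 reads in the 1000 ng columns of the 20M NuGENv2 table. Gas5 took 0.182% to 0.423% of them in the 100 ng columns and 0.200% to 0.433% in the 1000 ng columns, with means of 0.308% ± 0.0888 and 0.307% ± 0.0985 (SD, n = 5 each; exact two-sided permutation test, p = 0.984). The denominators of these shares include the reads given to listed transcripts, and the lists differ between the backgrounds. The sources used here do not give how reads over several bins were counted, so a read across short exons may count in more than 1 bin.

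The Gas5 reads were the same in 5 of the 6 tables. All 20 bins had identical reads in all 10 columns of the 20M, 40M and 80M NuGENv2 tables and of the 40M and 80M TruSeq tables. Gas5 gained no reads from kit or source depth in those tables, which therefore give 1 measurement of the gene, not 5. In the 20M TruSeq table the 1000 ng columns were again identical in all 20 bins, while all 20 bins of the 100 ng columns held more reads.

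Reads over the exons far outnumbered those over the introns when counted per base, as the plot of the map and reads per base shows. These reads per base were not scaled for depth, so they do not compare the level of the backgrounds. Their SDs include differences in depth between columns. Among exon bins the mean lay between 0.350 reads per base in E020 and 2.400 in E005 in the 100 ng columns, and between 0.583 in E020 and 3.30 in E005 in the 1000 ng columns. Intron bins lay between 0.0651 in E002 and 0.339 in E014 in the 100 ng columns, and between 0.0827 in E002 and 0.430 in E006 in the 1000 ng columns. The outermost exons were the lowest of the exons: E001 had 0.821 ± 0.184 reads per base in the 100 ng columns and 0.943 ± 0.337 in the 1000 ng columns (SD, n = 5 each). Of the 2 intron bins without an annotated snoRNA, E014 had 0.339 ± 0.173 reads per base in the 100 ng background. E006, whose snoRNA is annotated as SNORD24, had 0.339 ± 0.128 there. In the 1000 ng background E014 had 0.407 ± 0.146 and E006 0.430 ± 0.214 reads per base. E008, the other bin without one, had 0.274 ± 0.132 in the 100 ng columns and 0.355 ± 0.158 in the 1000 ng columns, below E006 and above the other 5 intron bins with a snoRNA in both. No test was run on this order. Intron bins were 123 to 557 bases long and exon bins 28 to 81 bases, and the part of length in the order of the bins was not tested.

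**Figure D1:**
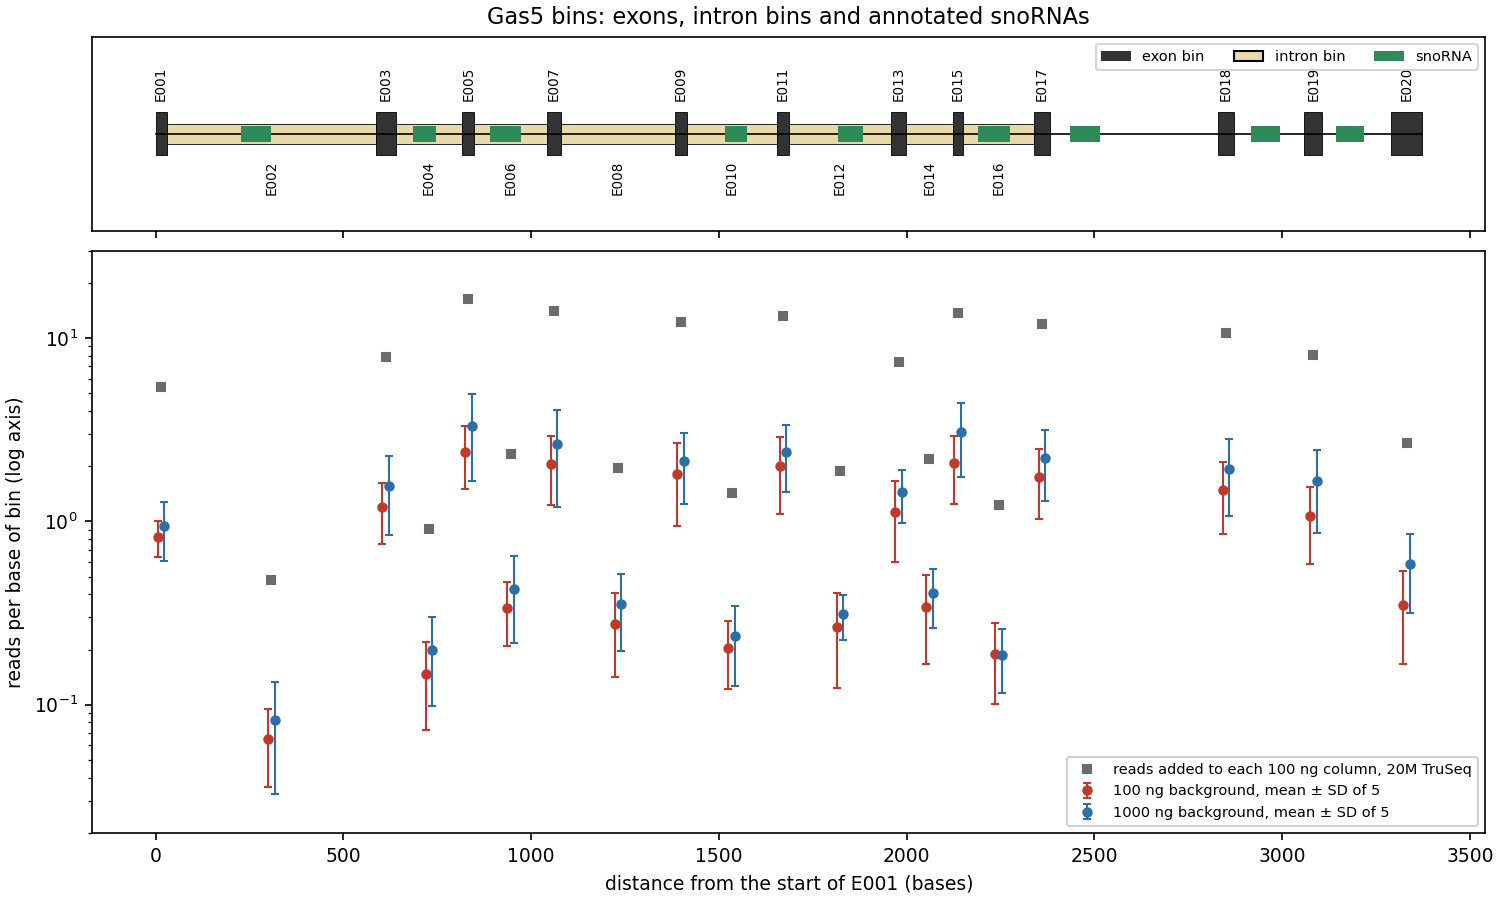
Upper panel: the 20 Gas5 bins to scale, with exon bins dark, intron bins pale and annotated snoRNAs green, against distance in bases from the start of E001. Lower panel: reads per base of each bin on a log axis, not scaled for depth. Points are the mean ± SD of 5 replicates in the 100 ng and 1000 ng backgrounds of the 20M NuGENv2 table. Squares are the reads added to each 100 ng column of the 20M TruSeq table. Within each series every intron bin lies below every exon bin, and the 3 series have nearly the same shape.

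The 8 intron bins together held a sizeable part of the Gas5 reads in both backgrounds. They took 38.0%, 37.9%, 38.7%, 38.6% and 34.5% of Gas5 reads in replicates 1 to 5 of the 100 ng background, against 35.0%, 35.8%, 37.5%, 35.0% and 37.1% in those of the 1000 ng background. Replicates 1 to 4 of the 100 ng background stood above every 1000 ng column and replicate 5 below them all. The means were 37.5% ± 1.73 and 36.1% ± 1.17 (SD, n = 5 each), a difference of 1.44 percentage points with p = 0.167 in an exact two-sided permutation test. Without replicate 5 of the 100 ng background the difference was 2.20 points with an exact permutation p of 0.0238, so that column decides the call.

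Levels were next set on 1 scale to compare the backgrounds. FPKM equivalents are recovered reads per kilobase of bin, divided by a size factor per column and brought to the level of the column that was per 1e6 reads. On this scale the sum over the 20 Gas5 bins in the 20M NuGENv2 table was 841, 933, 911, 773 and 865 in the 100 ng background, against 891, 948, 794, 881 and 750 in the 1000 ng background. The groups overlapped almost fully. Gas5 averaged 865 ± 63.0 in the 100 ng columns and 853 ± 79.7 in the 1000 ng columns (SD, n = 5 each). The log2 fold change was 0.02 (SE 0.08, 95% interval -0.17 to 0.21, limma adjusted p = 0.905). No model total of 58 passed the threshold of 0.05 in this table, 0% of those tested, and 12, or 20.7%, had an unadjusted p under 0.05. The synthetic reads that the labels list for uc007det.1 in the 100 ng samples are not marked in the tables, and their number cannot be told apart from the other Gas5 reads.

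No Gas5 bin was called at this contrast in the 20M NuGENv2 table (limma, Benjamini-Hochberg over 922 bins), where 1.95% of all bins were called. By limma 1 of the 20 bins, E020, had an unadjusted p under 0.05, as did 17.8% of all bins. An exact permutation per bin called 0 of all bins tested. The smallest p that this permutation can give with 5 columns against 5 is 0.0079, before adjustment over 922 bins. It can therefore call a bin only where many bins reach that floor, and its 0 says little about Gas5. Of the 20, 13 had a positive log2 fold change and 7 a negative one. The values of the groups overlapped in every bin, as the plot of all replicates shows. The median log2 fold change over the 20 bins was 0.05, beside -0.0012 over all bins tested.

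**Figure D2:**
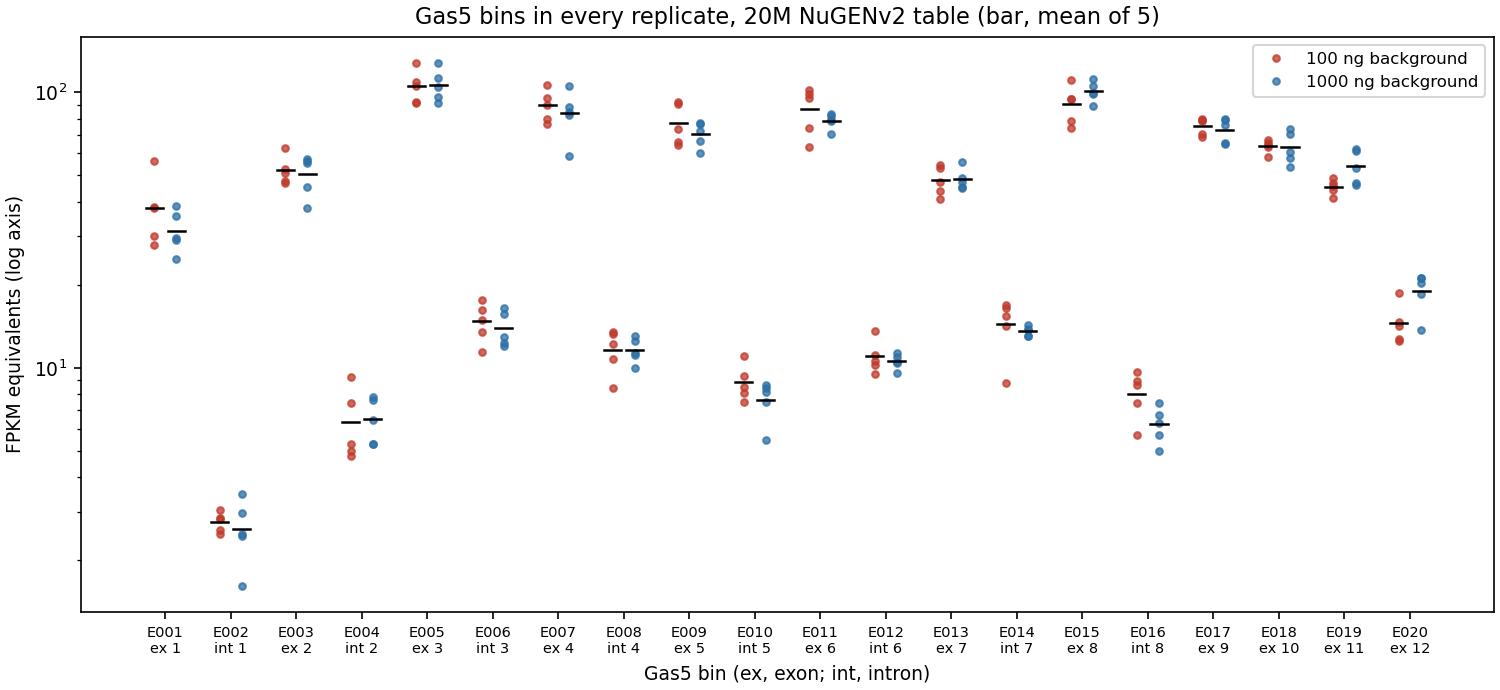
FPKM equivalents (log axis) of each Gas5 bin in every replicate of the 20M NuGENv2 table, with the 100 ng background left of the 1000 ng background and a bar at each mean of 5. Exon bins other than E020 lie above the intron bins, and the points of the 2 backgrounds overlap in all 20 bins.

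The 4 bins farthest from no change were the first exon, intron 8 and the last 2 exons. E020, the last exon, measured 12.7, 14.1, 14.7, 18.7 and 12.5 FPKM equivalents in the 100 ng background, against 20.3, 21.3, 13.7, 21.2 and 18.6 in the 1000 ng background. Replicate 4 of the 100 ng background lay among the 1000 ng values, and replicate 3 of the 1000 ng background among the 100 ng values. The means were 14.6 ± 2.51 and 19.0 ± 3.13 (SD, n = 5 each), with a log2 fold change of -0.36 (SE 0.15; by limma, adjusted p = 0.240). E019, the exon before it, averaged 45.4 ± 2.90 in the 100 ng columns and 53.8 ± 7.67 in the 1000 ng columns, with a log2 fold change of -0.23 (SE 0.11; by limma, adjusted p = 0.307). E016, the intron of SNORD79, leaned the other way, at 8.06 ± 1.55 in the 100 ng columns and 6.23 ± 0.952 in the 1000 ng columns, with a log2 fold change of 0.32 (SE 0.15; by limma, adjusted p = 0.299). E001, the first exon, was at 38.1 ± 11.1 in the 100 ng columns and 31.5 ± 5.53 in the 1000 ng columns, with a log2 fold change of 0.24 (SE 0.20; by limma, adjusted p = 0.676). None of the 4 passed the threshold.

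Usage, the change of a bin against the rest of its model, was tested apart with limma diffSplice. In the 20M NuGENv2 table no Gas5 bin passed, where 3.90% of all bins did, and 3 of the 20 had an unadjusted p under 0.05, as did 10.7% of all bins. They were E020 with a usage difference of -0.41 (log2 scale, limma adjusted p = 0.0744), E016 with 0.30 (adjusted p = 0.358) and E019 with -0.28 (adjusted p = 0.460). The test over all bins of the model gave an adjusted p of 0.498. The same E020 reads gave an adjusted p of 0.0630 in the 40M NuGENv2 table, 0.0437 in the 80M NuGENv2 table, 0.0356 in the 40M TruSeq table and 0.0330 in the 80M TruSeq table, at a difference of -0.41 in each. All bins called for usage numbered 36, 51, 100, 128 and 176 in these 5 tables in the same order, or 3.90%, 5.53%, 10.8%, 13.9% and 19.1% of those tested. E020 is thus on either side of the threshold with identical reads.

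As a share of Gas5 reads, E020 took 2.26%, 2.28%, 2.38%, 3.51% and 2.25% in replicates 1 to 5 of the 100 ng background, against 3.45%, 3.39%, 2.59%, 3.66% and 3.71% in those of the 1000 ng background. These shares rest on 16 to 46 reads in the 100 ng columns and 27 to 82 reads in the 1000 ng columns. Their 95% Wilson intervals are wide, for example 1.43% to 3.54% in replicate 1 of the 100 ng background and 2.58% to 4.59% in replicate 1 of the 1000 ng background, and cover counting error only. E019 was the 1 Gas5 bin of 20 whose shares did not overlap, where 8.23% of all bins in models of several bins did not. It took 4.89%, 4.17%, 4.65%, 5.03% and 4.37% in the 100 ng background, against 6.11%, 5.83%, 5.18%, 5.37% and 5.40% in the 1000 ng background. At 1 of 20 bins, Gas5 lay near the share found over all bins.

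The 100 ng columns of the 20M TruSeq table held the same 7383 further Gas5 reads in each of the 5 replicates. They were obtained as the reads in this table minus those in the same-numbered columns of the 20M NuGENv2 table, and the difference was identical over replicates in all 20 bins, the fifth included. With them the Gas5 reads came to 8181, 8174, 9148, 8694 and 8093 in the 100 ng columns, while the 1000 ng columns kept 1277, 2420, 1042, 1285 and 889. The addition multiplied Gas5 by 5.18 in replicate 3, the column with most reads of its own, and by 11.4 in replicate 5, the column with fewest. The label of this sample lists Gas5 only for synthetic reads, as in the other 100 ng samples.

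The added reads were spread over Gas5 like the background reads. By bin they ranged from 152 reads in E001 to 590 in E008, or from 0.477 reads per base in E002 to 16.3 in E005. In each bin the addition was 6.19 times (E004) to 7.64 times (E020) the mean of the 5 background columns. The share that a bin took of the added reads lay within the range of the 10 background columns in all 20 bins. In E019 this share, 5.15%, lay between the groups, above every 100 ng column and below every 1000 ng column. Introns were included: the 8 intron bins gained 2812 of the 7383 reads, 38.1% (95% Wilson interval 37.0% to 39.2%), beside 37.5% ± 1.73 in the 100 ng columns and 36.1% ± 1.17 in the 1000 ng columns. E020 took 2.90% (2.54% to 3.31%) of the added reads, between the mean of 2.53% ± 0.547 in the 100 ng columns and that of 3.36% ± 0.450 in the 1000 ng columns. Over the 20 bins, the log2 reads per base of the added reads had a Pearson r of 0.999 with the 100 ng mean and 0.996 with the 1000 ng mean, and the 2 backgrounds had 0.995 with each other. These correlations share the bin lengths and are a description.

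**Figure D3:**
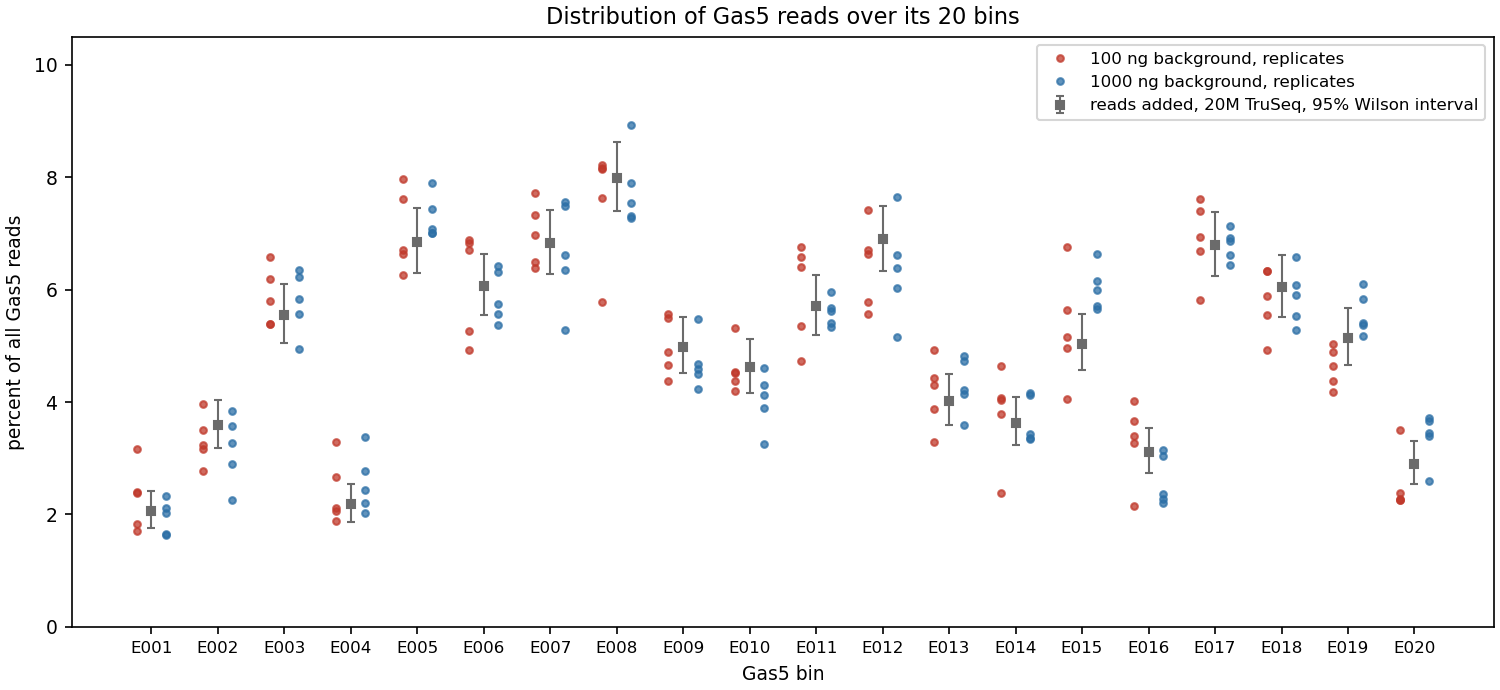
Percent of all Gas5 reads in each bin: points for the 5 replicates with 100 ng (left) and with 1000 ng (right), and squares for the reads added to the 100 ng columns of the 20M TruSeq table with 95% Wilson intervals. The squares lie within the range of the 10 replicates in all 20 bins. The points of E019 do not overlap between backgrounds, and its square lies between them.

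Gas5 gained slightly less than the fifth replicate's library as a whole and more than the typical bin. The divisor of the fifth 100 ng column was 200.9 in the 20M TruSeq table and 16.02 in the 20M NuGENv2 table, so that the addition was 11.5 times the library before it. For Gas5 the addition was 10.4 times the 710 reads of that column, and the median over 897 bins with reads was 8.71 times. The addition over all models was 864540 reads per column, of which Gas5 took 0.854% (95% Wilson interval 0.835% to 0.874%). That is above the 0.182% to 0.423% it took of the 100 ng columns before the addition, but the 2 shares have unlike denominators. Over all bins, replicate 5 went from 389552 to 1254092 reads, a smaller step than that of its library or of the median bin. The columns before the addition include the reads given to listed transcripts, so the higher share does not by itself set Gas5 apart.

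On the common scale the 20M TruSeq table gave a higher Gas5 level in the 100 ng columns, which hold the added reads. The sum was 747, 746, 756, 730 and 746 FPKM equivalents in the 100 ng columns, against 717, 730, 625, 679 and 586 in the 1000 ng columns. The lowest 100 ng value lay just above the highest 1000 ng value. The means were 745 ± 9.36 and 667 ± 61.0 (SD, n = 5 each), with a log2 fold change of 0.16 (SE 0.06; by limma, adjusted p = 0.0358). Of all model totals 72.4% were called there. The 100 ng columns share the 7383 added reads, and the median SD of a bin was 1.79% of its mean in them, against 14.2% in the 1000 ng columns, so that the 100 ng replicates are not independent there. All p-values from this table, below as well, treat that shared addition as separate replicates.

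The size of that difference was set by the scaling. It was 0.82 on the log2 scale with size factors from models that have no kit reads (limma adjusted p = 0.000702) and 0.85 with upper-quartile scaling (limma adjusted p = 0.00049), where the median over all models moved to 0.63 and 0.66, beside -0.02 on the main scale. Relative to that median, Gas5 was therefore higher by about the same step under all 3. The call was lost without any 1 of the 5 columns of the 100 ng background, and without replicate 3 or replicate 5 of the 1000 ng background (limma adjusted p from 0.0521 to 0.0767).

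By bin, 10 of the 20 were called in the 20M TruSeq table, all higher in the 100 ng columns, which share the added reads. Of all bins, 62.4% were called in either direction and 29.7% as higher. The 10 called were the exon bins E001, E009, E011, E017 and E018 and the intron bins E008, E010, E012, E014 and E016. Their log2 fold changes ran from 0.18 in E014 to 0.41 in E016. E016 averaged 6.75 ± 0.179 FPKM equivalents in the 100 ng columns and 4.87 ± 0.689 in the 1000 ng columns (SD, n = 5 each; limma adjusted p = 0.00221). E020 averaged 14.4 ± 0.233 in the 100 ng columns and 14.9 ± 2.39 in the 1000 ng columns, with a log2 fold change of -0.02 (by limma, adjusted p = 0.853). With size factors from models that have no kit reads all 20 bins were called as higher, where 726 of all 922 bins were called in either direction, and with upper-quartile scaling likewise all 20, where 722 were. Usage differed in 1 bin, E015, the eighth exon, by -0.25 (limma adjusted p = 0.0330), where 18.1% of all bins were called, and E020 had -0.22 (limma adjusted p = 0.0700). Under those 2 scalings no Gas5 bin was called for usage.

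**Figure D4:**
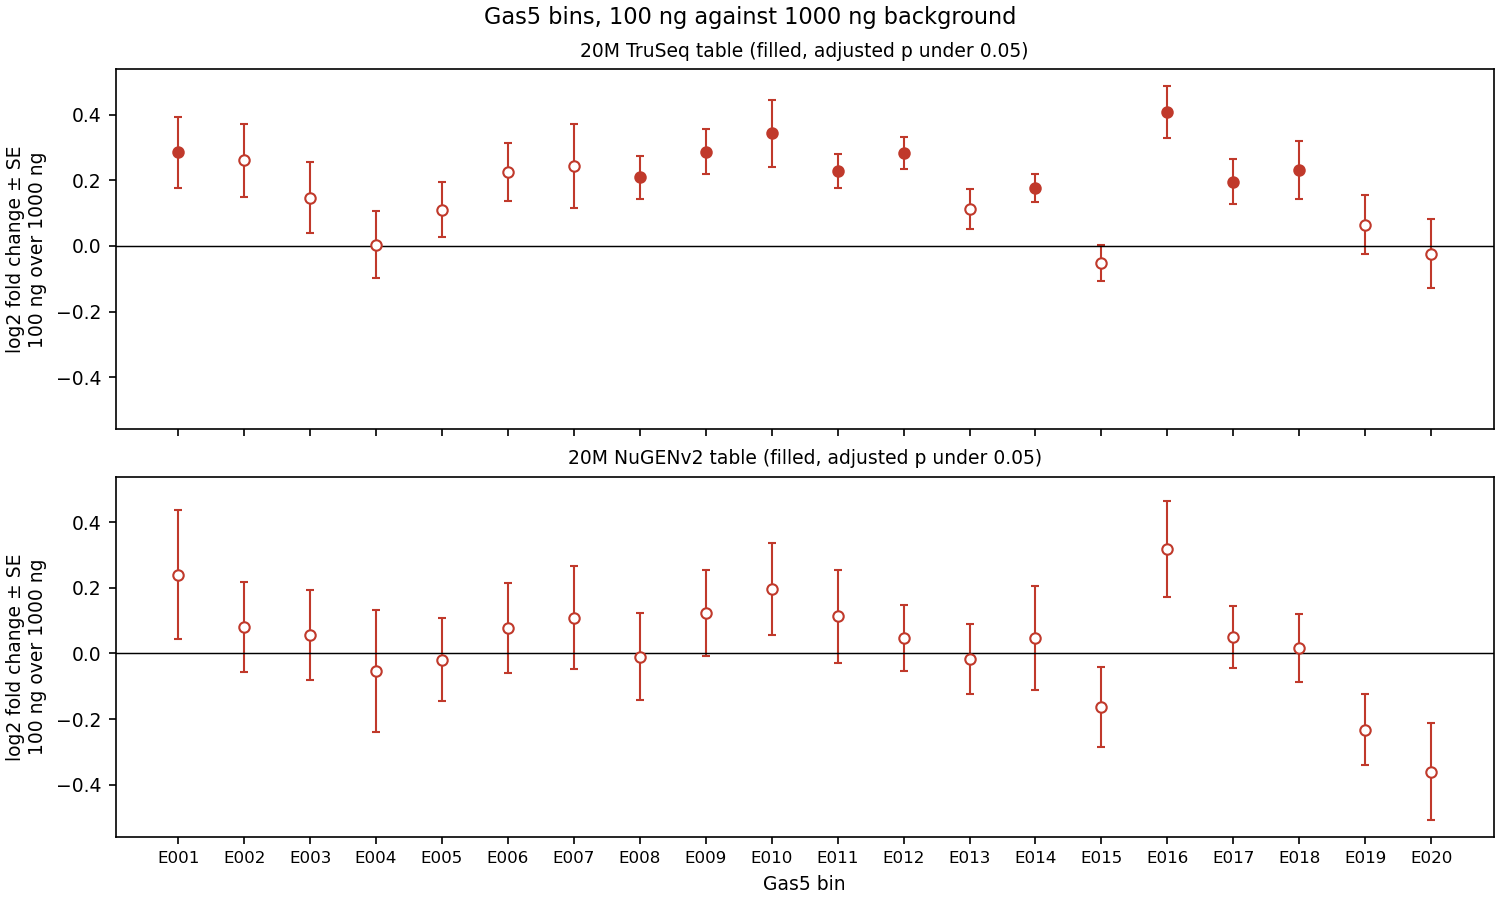
log2 fold change (100 ng over 1000 ng) ± SE of each Gas5 bin in the 20M TruSeq table (upper) and the 20M NuGENv2 table (lower), with filled points where the limma adjusted p was under 0.05. In the upper panel 10 bins are filled, all above 0; in the lower panel none is, and E020 is lowest in it at -0.36.

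Among the models of the tables Gas5 was of middling level and varied less between replicates than most of them. Over the whole length of its bins it had 18.3 ± 1.23 FPKM equivalents in the 100 ng columns and 17.8 ± 1.57 in the 1000 ng columns (SD, n = 5 each) in the 20M NuGENv2 table, which ranked 26 and 28 of 58. The SD of its log2 sum over replicates was 0.11 in the 100 ng columns and 0.14 in the 1000 ng columns, ranks 46 and 36 of 58 from the most variable. Across the 10 columns its sum was most like those of Elp2 (Pearson r = 0.57), a subunit of the Elongator complex, tubg1 (0.49), a gamma-tubulin, and Mgl2 (0.49), a C-type lectin. They are the highest r among the other models, where the lowest was -0.53, and no test was run on them. These values share the scaling of the columns.

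The 12 other models with a transcript in the same 100 ng synthetic list were read beside Gas5. In the 20M NuGENv2 table none was called by its total in either direction, and 9 of the 12 had a positive log2 fold change. Their median was 0.14, beside 0.00044 over all 58 models. Of these, 6 were not also on the matching 1000 ng list, and all 6 had a positive value, from 0.02 in Rcbtb2 to 2.21 in Tmem62. Gas5, with 0.02, was at the low end of them. The count of positive values among these 6 was not the same in every table: it was 6 in the 40M NuGENv2 table, 5 in the 80M NuGENv2 and 40M TruSeq tables and 4 in the 80M TruSeq table. Of the 6, 2 were positive in the 20M TruSeq table, and of the 12, 3 were. There the median of the 12 was -0.52, beside -0.02 over all models. By total, 3 of the 12 were called higher and 6 lower in the 100 ng columns. Among all 58 models, 37.9% were called higher and 34.5% lower in that table. Of the lists of related genes, the tables held 0 of 35 other snoRNA hosts, 0 of 14 genes of nonsense-mediated decay and 1 of 9 genes of glucocorticoid receptor signalling. That gene, Birc3, an inhibitor of apoptosis listed for kit reads in the 100 ng samples, had a log2 fold change of -0.19 (SE 0.12; by limma, adjusted p = 0.4998). Of 12 dendritic cell markers the tables held 2, Mgl2 and Sirpa, a receptor of myeloid cells. Over the length of their bins in the 20M NuGENv2 table, Mgl2 had 597 ± 15.5 FPKM equivalents in the 100 ng columns and 504 ± 33.2 in the 1000 ng columns (SD, n = 5 each), ranks 1 and 2 of 58. Sirpa had 75.5 ± 2.84 in the 100 ng columns and 66.3 ± 3.63 in the 1000 ng columns, rank 12 in both. Both are listed for kit reads in the 100 ng samples and are on no list of the 1000 ng samples.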

How the data were processed

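The authors deposited 6 tables of coverage signal per exon bin; per the submitters' processing notes STAR, Cuffdiff and mm9 were used, with no version given. Each table had 1744 rows, of which 818 repeated others and 1 of the 926 distinct was not finite. In 9 columns the deposited signal was whole reads over bin length; the fifth 100 ng column was also divided by a library total, found from the values. Bin lengths and this total were chosen to make the values whole. That 100% came out whole, within a tolerance of 0.001 reads that was wider for large values, is therefore no separate check. Columns were scaled by the median of ratios; models were fitted with limma 3.58.1 in R 4.3.3, two-sided, on log2(FPKM equivalent + 1), which understates changes of low values, 5 columns against 5, each table alone, with Benjamini-Hochberg adjustment at 0.05. Bins needed a mean of 1 or a listed model; all 20 Gas5 bins were tested. Usage was tested with diffSplice. The fit was tested on simulated data with independent columns and changes larger than those reported for the Gas5 bins. That test does not cover smaller changes or reads shared between columns. Exact permutations and Wilson intervals used Python 3.11.15 and SciPy 1.17.1; sequences were read with pysam 0.24.0 from NCBIM37.

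Genes named are all Gas5 bins, the 3 models most like Gas5, the members of the pathway and marker lists that the tables held, and the extremes of the synthetic list, chosen after their values were seen. Members and lists were chosen with earlier results of these data known, and the intron share and E020 shares after values were seen. Alternatives were other pseudocounts, scalings, tables, tests, a replicate block and leaving out each column.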

Additional observations from a re-analysis of the deposited data

Results flagged for a closer look

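Of 88 groups of 5 columns examined, 5 had 1 column far from the other 4 (Dixon's criterion at 95%), about what chance gives at 1 in 20 groups. In the 100 ng background, replicate 4 had 3.51% of its Gas5 reads in E020, above the other 4 columns. In the 1000 ng background, replicate 3 had 2.59% in E020, below the other 4. In replicate 5 of the 100 ng background, E008 took 5.77% of Gas5 reads and the 8 intron bins together 34.5%, both below the other columns, and this column is the one deposited in another unit. Gas5 had 2420 reads in replicate 2 of the 1000 ng background, above the other 4 columns. The cause of these values was not tested.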

How the results depend on the processing

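In the 20M NuGENv2 table the log2 fold change of the Gas5 sum, 0.02, never passed the threshold, and its sign was not stable. It was -0.96 with the values as deposited and -0.26 with these but without the fifth column, where the median over all models was -0.82 and -0.21. It was -0.13 with upper-quartile scaling (chosen after seeing the data; median over all models -0.15), -0.0098 in the 80M NuGENv2 table, -0.038 in the 40M TruSeq table and -0.059 in the 80M TruSeq table, and ranged from -0.023 to 0.061 when 1 column was left out. Over these alternatives other than leaving out a column the adjusted p ran from 0.451 to 0.981. The count of 0 Gas5 bins called held under all 13 alternatives and all 10 omissions. They called 0 to 197 and 5 to 24 of all bins in turn, against 18 as reported. Alternatives with deposited values, the replicate block or permutation called 0 or 1, so their 0 says little. The 40M and 80M tables of both kits are alternatives with the same Gas5 reads under another scaling, not separate measurements. The count for usage was 0, where 36 of all bins were called. It became 1, E020, with the replicate block and in the 80M NuGENv2, 40M and 80M TruSeq tables, where 41, 100, 128 and 176 were. With a column left out it was 0 or 1. E020 was called without replicate 4 of the 100 ng or replicate 3 of the 1000 ng background, where 35 and 36 were. E016 was called without replicate 2 of the 100 ng background, where 43 were.

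In the 20M TruSeq table the log2 fold change of 0.16 became 1.33 with the values as deposited (adjusted p = 0.486) and kept 0.16 with the replicate block (limma adjusted p = 0.0721). Leaving out 1 column gave 0.12 to 0.20, past the threshold in 3 of 10 omissions (limma adjusted p from 0.0138 to 0.0767). The count of 10 bins became 0 with the values as deposited, 20 with these but without the fifth column, 20 with size factors from models without kit reads, 20 with upper-quartile scaling and 7 with the replicate block, where 0, 732, 726, 722 and 483 of all 922 bins were called, against 575 as reported. It was 8 with an exact permutation per bin, where 539 of all bins were called, and 7 to 13 with 1 column left out, where 489 to 613 were. The count of 1 for usage became 2 with a pseudocount of 0.1, 0 with the values as deposited, 14 with these but without the fifth column, 0 with size factors from models without kit reads and 0 with upper-quartile scaling, where 136, 4, 444, 189 and 171 of all 922 bins were called, against 167 as reported. It was 0 to 2 with 1 column left out, where 117 to 220 of all bins were called. The fifth deposited column is in another unit, which by construction widens the spread of the 100 ng group. The replicate numbers did not pair the columns: deviations of same-numbered columns correlated at -0.38 to 0.09, and 0 of 5 correlated best with its own number. The intron share difference of 1.44 points ranged from 1.15 to 2.20 with 1 column left out, and 1 of 10 omissions passed the threshold. Otherwise the cause of changes was not tested. The planned normalization and test on recovered reads with edgeR were not run, because the deposited unit is a signal and not a count. Depth limits the bins: E020 rests on 16 to 82 reads per column, E001 on 17 to 40 and E016 on 17 to 60.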
